A study of Caenorhabditis elegans with 13 samples.

Results

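All viable cells of early Caenorhabditis elegans embryos were profiled directly after dissociation and again after a day on culture dishes, and the transcripts that differed between these populations are described here. The members were taken by their labels: the 4 arrays of the 24 hr reference (R24) and the 3 arrays of the 0 hr reference (R0), 7 of the 13 arrays of the series. The other 6 arrays hold body wall muscle cells sorted for a myo-3::GFP transgene, fresh (M0, 3 arrays) or cultured (M24, 3 arrays), and they are used only where a change in muscle is set beside that in all cells.

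R0 and R24 both came from wild-type (N2) animals; the labels' common growth text, however, speaks of adults carrying myo-3::GFP. Adults of no stated age were treated with bleach and NaOH to release their embryos, chitinase removed the eggshell, and the cells were dissociated. For R0 the cells were sorted at once. For R24 they were plated on poly-L-lysine, kept for 24 hr, taken off the dish and then sorted. Both sorts kept every cell that excluded propidium iodide, so neither group was selected for a cell type, and cells that died or detached in culture were not measured. The titles call the samples biological replicates. Dissociation works only on young embryos, so R0 holds cells of embryos that have not yet elongated.

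Cells of such embryos are still dividing or have just become post-mitotic. In culture they attach and many take on the features of neurons, muscle, epidermis and other tissues without the contacts of an intact embryo. A population of all cells can change because the transcripts of each cell change, because some cell types survive or divide more than others, or because cells respond to dissociation and the dish. In RNA from mixed cells, fewer cells of a type and less RNA per cell cannot be told apart. Time, culture and batch went together here: all R0 arrays were of chip lot A and the recorded R24 arrays of lot B, no scan day held arrays of both groups, and the deposited values of the groups came from separate normalization runs. The effect of 24 hr in culture and that of the batch cannot be told apart for any gene, and "raised" and "lowered" below mean the difference between these sets of arrays.

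Median intensities were 49.2 to 54.7 over the 7 arrays. After the arrays were brought to a common distribution, the squared correlation of log2 values (R²) was 0.910 to 0.957 between R0 arrays, 0.946 to 0.972 between R24 arrays and 0.716 to 0.825 between an R0 and an R24 array. R24 replicate 1 was the R24 array nearest to R0, and R0 replicate 2 the array farthest from the others of its own group. The first principal component held 75.1% of the variance and separated the groups. R24 replicates 1 to 3 were scanned on 1 day, the R0 arrays on 3 different days, and R24 replicate 4 has no scan record.

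Differences between the groups were widespread and nearly balanced. Of 17118 genes, each read by its brightest probe set, 2189 were raised in R24 (12.8%) and 2348 were lowered (13.7%) at an adjusted p under 0.05 in limma and a fold change of at least 1.7. Among all 22548 probe sets 3014 rose and 2907 fell. The R0 and R24 arrays did not overlap for 8905 genes (52%). The balance depended on the scaling: with the deposited values as they stand 4105 probe sets were raised and 2180 lowered, so that 65.3% of the calls were rises against 50.9% after joint normalization, and with median-centred arrays 59.3% were rises. Calls were rare among dim genes. Among the dimmest 3424 genes 1.64% were raised and 2.34% lowered, against 20.4% and 20.5% among the brightest 3424.

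**Figure D1:**
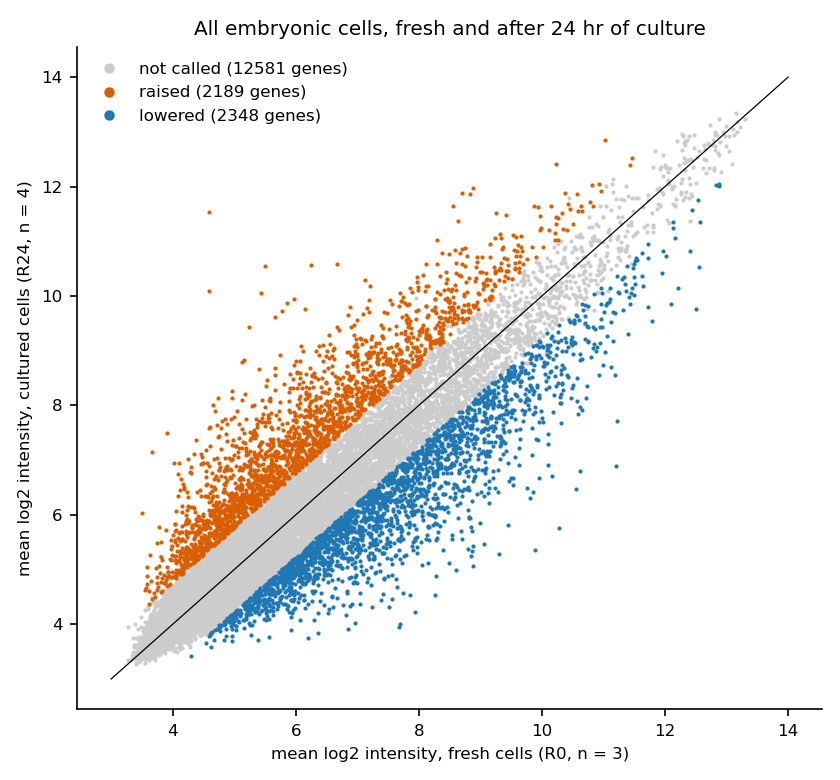
Mean log2 intensity of 17118 genes in cultured cells (R24, vertical axis, 4 arrays) against fresh cells (R0, horizontal axis, 3 arrays), after joint quantile normalization. Each point is 1 gene by its brightest probe set; 2189 orange points were raised and 2348 blue points lowered, and the line marks equal levels.

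The transcript with the largest measured rise was C25F9.2. Its log2 intensity was 4.59, 4.66 and 4.51 on the R0 arrays and 11.20, 11.72, 11.38 and 11.87 on the R24 arrays. Every R24 array lay far above every R0 array, and the change was 6.96 ± 0.17 (log2, SE; adjusted p = 3.92e-06, limma). Its fresh values, like those of F26E4.5 and fbxa-140, lie at the level of the dimmest 3424 genes (means of 3.32 to 4.62) and are not known to be above background, so that the sizes and the order of these rises are as measured only. The 15 largest rises ran down to 3.59 on the log2 scale. Next came F26E4.5, at 4.51, 4.81 and 4.45 in R0 and 8.48, 10.59, 10.66 and 10.64 in R24, with R24 replicate 1 the lowest of the cultured arrays. Y43F8B.9 (change 5.06 ± 0.33) and F08F1.9 (4.61 ± 0.37) followed, and none of these 4 genes has an annotated role in the sources used here.

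Several of the strongest rises were in genes of known function. rnf-113, a zinc finger protein of the spliceosome, was at 5.7, 4.92 and 5.09 in R0 and at 8.82, 9.65, 9.63 and 9.60 in R24 (change 4.19 ± 0.26). scp-1, related to the sensor that escorts sterol-regulated transcription factors, rose by 3.96 ± 0.41, and both of its probe sets were raised. ttll-12, of the tubulin tyrosine ligase family, rose by 3.91 ± 0.31. pnk-1, a pantothenate kinase of coenzyme A synthesis, was at 5.58, 5.05 and 4.74 in R0 and 8.57, 8.85, 8.64 and 9.14 in R24, a 12.8-fold difference. cya-2, of the cyclin A family, rose by 3.60 ± 0.35, and fbxa-140, an F-box gene, by 3.59 ± 0.44. The other members of the 15 were F54D5.7, F46F11.7, C03B8.2, R03H10.6 and C48B4.9, with changes of 4.32, 4.02, 3.98, 3.94 and 3.68.

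Among the falls, F52A8.3 and the cuticle collagen col-97 led with a change of -4.52 each. The intensity of col-97 was 10.44, 9.91 and 10.5 on the R0 arrays and 6.11, 5.78, 5.74 and 5.43 on the R24 arrays, and both of its probe sets were lowered. R02F11.1 went from 11.45, 11.04 and 11.12 to 7.63, 6.63, 6.67 and 6.64. These bright R0 transcripts were lower by 22.9-fold for col-97 and 19.9-fold for R02F11.1. ace-1, the acetylcholinesterase expressed in muscle, was at 7.56, 8.55 and 7.69 in R0 and 4.36, 4.44, 3.94 and 4.17 in R24 (change -3.70 ± 0.25, adjusted p = 5.71e-05), with 1 of its 2 probe sets called. phat-4, a gene of the pharyngeal glands, changed by -3.63 ± 0.26, and pqn-13, of the glutamine- and asparagine-rich proteins, by -3.81 ± 0.25, with both probe sets lowered. The remaining 9 falls were W08E12.2, F07A5.4 (both of its probe sets lowered), T03F1.11, T19D12.3, C40A11.6, C03C10.5, idpp-8, F53A9.3 and D2096.6, with changes between -4.07 and -3.59.

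**Figure D2:**
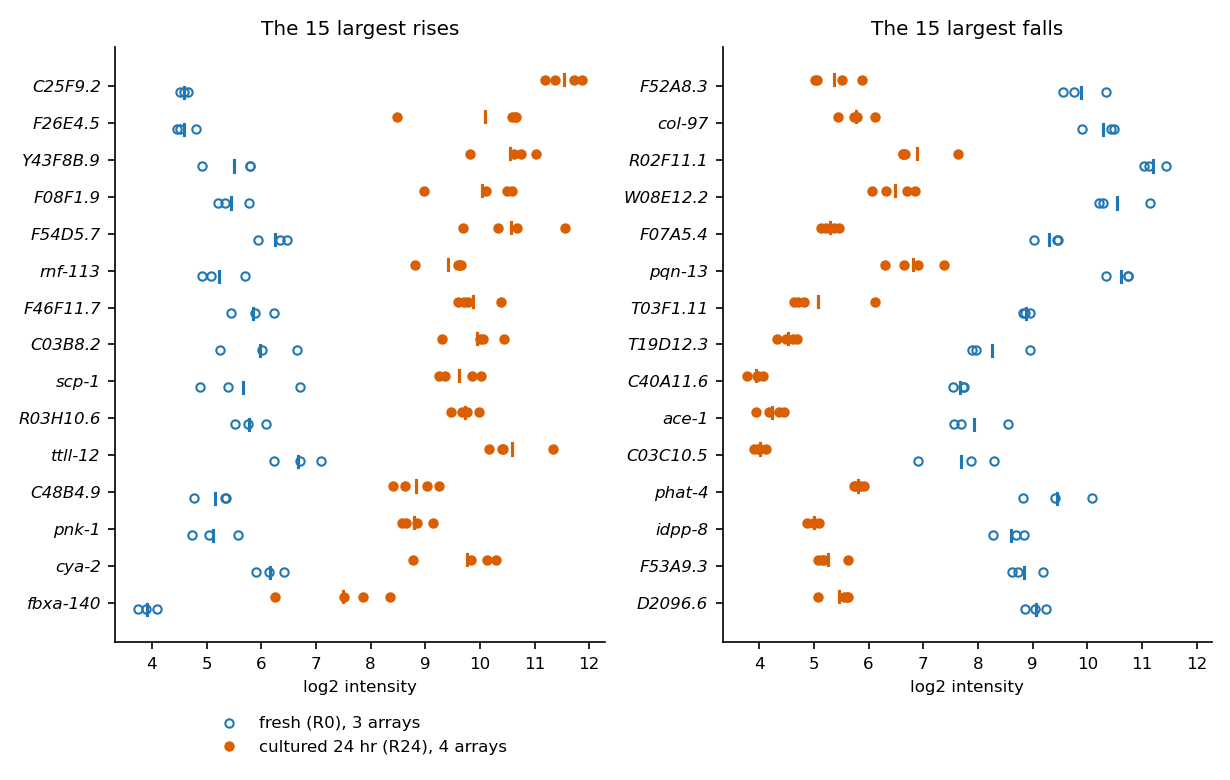
Log2 intensity on each array of the 15 genes with the largest rise (left) and the 15 with the largest fall (right). Open blue circles are R0 arrays, filled orange circles R24 arrays and ticks the group means; no R24 array overlaps an R0 array, a condition of the choice, and R24 replicate 1 is the low orange point of F26E4.5 at 8.48.

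Of the 65 gene lists described, that of the proteasome had the highest share of raised genes. Each list count after joint normalization stands beside 12.8% of all genes raised and 13.7% lowered. The proteasome is the barrel-shaped protease that degrades ubiquitin-tagged proteins; alpha (pas) and beta (pbs) subunits form its core, and rpt ATPases and rpn subunits its regulatory cap. Of 33 proteasome genes measured, 21 were raised and 0 lowered, beside 12.8% of all genes raised, and their median change was 1.00 (all genes -0.03). With the deposited values 31 were raised, and 10 by ranks within each array, where a call asks for a shift of at least 10 percentile points and bright genes have little room to move. The rises covered 7 of 7 alpha subunits, 3 of 7 beta subunits, 8 of 13 rpn and 3 of 6 rpt genes. pbs-4 was at 7.57, 7.21 and 7.12 in R0 and at 9.37, 8.81, 8.92 and 9.45 in R24 (change 1.83 ± 0.20). rpn-13, a ubiquitin receptor of the cap, was at 7.52, 5.35 and 6.68 and then at 8.84, 8.69, 8.34 and 8.90 (2.17 ± 0.45). The fresh arrays of rpn-13 spread widely, and R0 replicate 2 was the lowest. pas-6 rose by 1.81 ± 0.28 and rpt-2 by 1.81 ± 0.23, the latter on both probe sets. The mean level over the 33 genes was 7.62 to 8.06 on the R0 arrays and 8.70 to 9.01 on the R24 arrays, so these ranges did not overlap. In sorted muscle the same genes had a median change of 2.02, with 32 raised, where 10.3% of all genes were raised and 10.3% lowered. The difference between the muscle and the reference change was not tested for lists.

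Chaperones of the cytosol followed: 10 of 20 were raised and 0 lowered, with a median of 0.72, and by ranks 5 were raised. hsp-1, the abundant constitutive Hsp70, was at 9.49, 8.25 and 8.92 in R0 and at 11.96, 12.06, 11.7 and 12.195 in R24, a change of 3.09 ± 0.27 or 8.53-fold. hsp-70, a heat-inducible Hsp70, was at 6.29, 8.04 and 6.19 and then at 9.51, 9.85, 9.28 and 9.96 (2.81 ± 0.43). R0 replicate 2 was the highest fresh array for hsp-70 and the lowest for hsp-1. unc-23, a BAG-domain co-chaperone, rose by 1.97 ± 0.20 on both probe sets, and the J-domain gene dnj-12 by 1.77 ± 0.38 on 1 of its 2. Of the cct genes, which encode the ring chaperonin that folds actin and tubulin, 2 of 8 were raised. Probes of Hsp70 genes may also bind each other's transcripts, since the genes are alike in sequence.

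The small heat shock proteins, which hold unfolded proteins, split in direction: 2 of 10 were raised and 4 lowered, against 4 raised and 3 lowered with the deposited or the median-centred values and 1 each way by ranks. hsp-17 was at 7.08, 6.57 and 7.34 in R0 and at 9.29, 8.40, 9.09 and 9.50 in R24 (change 2.07 ± 0.28). hsp-16.41, a classic heat-induced member, rose by 1.80 ± 0.38. hsp-16.2, of the same family, was at 9.69, 11.87 and 9.78 in R0 and 11.89, 11.96, 11.49 and 11.85 in R24. The groups overlapped because R0 replicate 2 was as high as the cultured arrays (change 1.35 ± 0.49, limma, adjusted p = 0.0537). It was raised with the deposited and the median-centred values, with dim probe sets filtered out, with array weights and without R0 replicate 2. Without that array 4 small heat shock genes were raised rather than 2. Against these, 3 members of the hsp-12 family fell: hsp-12.1 by 1.85 ± 0.34, hsp-12.3 by 1.62 ± 0.39 and hsp-12.2 by 1.57 ± 0.25 on the log2 scale.

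In the endoplasmic reticulum, hsp-4, the BiP chaperone induced by unfolded proteins, was at 7.45, 6.88 and 7.11 in R0 and 8.93, 8.84, 8.94 and 9.09 in R24 (change 1.80 ± 0.15, adjusted p = 0.000107). Its regulator xbp-1 rose by 1.72 ± 0.21 on both probe sets, whereas atf-6, another sensor of that stress, changed by -1.63 ± 0.26 on 1 of its 2. The whole list of 20 did not move one way: 4 were raised and 2 lowered, with a median of 0.02, and the count of lowered genes ranged from 1 to 4 as single arrays were left out (4 without R0 replicate 2), and by ranks 1 was raised and 1 lowered. In mitochondria hsp-60, the chaperonin, rose by 1.69 ± 0.15 on 1 of 2 probe sets and timm-23, of the import channel, by 1.40 ± 0.16 on both. Of 10 mitochondrial chaperone and stress genes 3 were raised and 1 lowered, or 5 and 0 with the deposited or the median-centred values.

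Among genes for making and handling RNA and for building protein, the lists differed in their share of rises. The lists for the spliceosome, tRNA synthetases, translation factors and the nuclear pore were added after the values of the largest rises had been seen, so their counts describe the data only. Of 62 spliceosome genes 24 were raised and 3 lowered (median 0.45). uaf-2, the small subunit of the factor that marks the 3' splice site, was at 4.98, 5.15 and 4.77 in R0 and at 8.13, 7.90, 8.40 and 8.64 in R24 (3.30 ± 0.19). syf-3, of the complex around the active spliceosome, was at 4.98, 4.84 and 5.07 and then at 8.11, 7.97, 7.71 and 8.74 (3.17 ± 0.23). Both were dim in fresh cells and clear in cultured ones. rrsr-1, an SR-related protein, rose by 3.16 ± 0.36. The members that fell belong to the small ring proteins and particle proteins of the spliceosome, lsm-5 (-1.5 ± 0.44), lsm-6 (-1.22 ± 0.27) and rnp-2 (-0.89 ± 0.26), and the first and last of these calls did not hold: lsm-5 was not called without R0 replicate 1 or 3 or without R24 replicate 1 or 2, rnp-2 without R0 replicate 2 or 3 or without R24 replicate 1, 2 or 4, and neither with the deposited values.

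Of 26 nuclear pore genes 11 were raised and 1 lowered (median 0.57), with 17 raised in the deposited values. npp-3 was at 6.38, 6.69 and 6.56 in R0 and 8.48, 8.89, 8.64 and 9.46 in R24, a change of 2.33 ± 0.23 on both probe sets, and npp-6, of the outer ring, rose by 2.16 ± 0.22. Among genes of the nucleolus and ribosome assembly 10 of 21 were raised and 0 lowered (median 0.65; by ranks 6 and 1), led by rbd-1 and nog-1 (2.35 ± 0.34 and 2.35 ± 0.27) and by dkc-1, a pseudouridine synthase (2.00 ± 0.31). Of 75 genes for the cytosolic proteins of the ribosome itself 1 was raised and 3 were lowered, and the median was 0.01. With the deposited values 9 of these were raised and 1 lowered, and with median-centred arrays 4 and 1. The raised gene was rpl-11.1, which encodes an L11 protein, at 8.78, 8.79 and 8.79 in R0 and 10.78, 10.38, 11.14 and 10.61 in R24.

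The tRNA synthetases, which load amino acids onto tRNAs, had 15 of 33 members raised and 0 lowered (median 0.74), and by ranks 6 were raised. yars-1, for tyrosine, was at 8.28, 7.74 and 7.87 and then at 10.06, 10.19, 10.15 and 10.62 (2.29 ± 0.18, all 3 probe sets). lars-2, the mitochondrial enzyme for leucine, rose by 2.38 ± 0.24 and tars-1, for threonine, by 2.17 ± 0.32. Of 37 translation factors 12 were raised and 0 lowered (median 0.47), among them the eIF2B subunit eif-2Bgamma (1.98 ± 0.26) and eif-3.B (1.60 ± 0.15); without R0 replicate 2 a further 4 were called lowered. Mitochondrial ribosomal proteins had 12 of 56 raised and 2 lowered (median 0.32), or 21 and 0 with the deposited values, with mrpl-24 (2.26 ± 0.16) and mrps-22 (1.91 ± 0.17) at the top, while in sorted muscle their median change was -0.27, with 2 raised and 9 lowered.

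**Figure D3:**
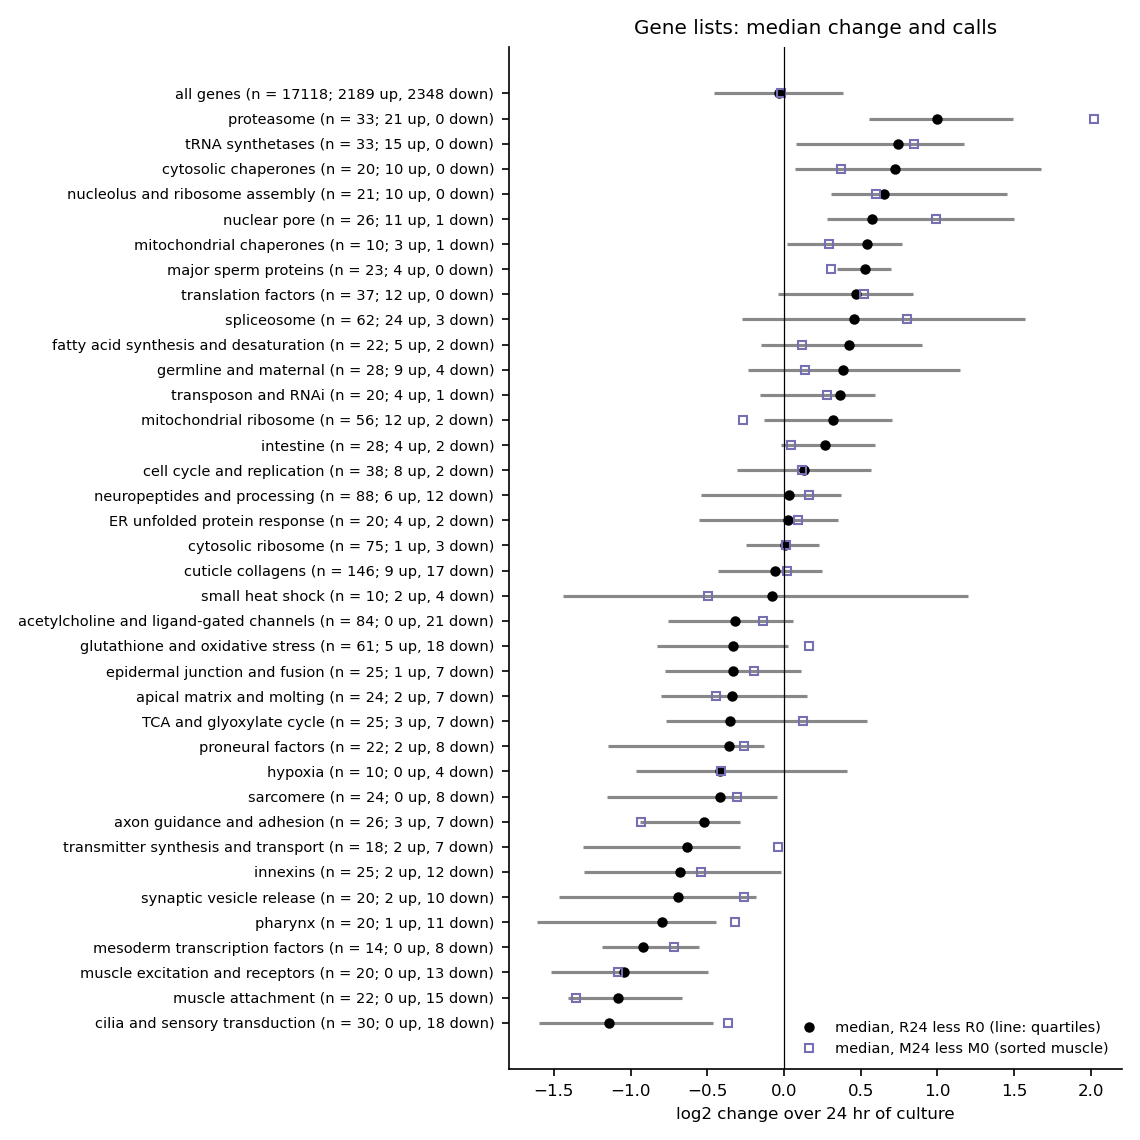
Median log2 change between fresh and cultured cells of selected gene lists with at least 10 measured members (black, R24 less R0, with lines from the lower to the upper quartile) and of the same genes in sorted muscle (open squares, M24 less M0). Shown are the lists with larger medians in R24 less R0 and a few others whatever their median. Most lists with small medians are left out. The label of each list gives the members measured, raised and lowered in R24; the proteasome lies at 1.00 and cilia at -1.14, and all genes together at -0.03.

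Body wall muscle is among the first tissues to be recognised in such cultures, yet no muscle list was higher in R24. The myosin heavy chain myo-3, whose promoter marks muscle in this study, was at 7.18, 5.87 and 7.50 in R0 and at 6.88, 7.03, 6.41 and 6.43 in R24. The groups overlapped, and the change of -0.16 ± 0.37 was not called (adjusted p = 0.745). The major myosin unc-54 (-0.07 ± 0.24) and the muscle determination factor hlh-1 (0.04 ± 0.23) were not called either, each with overlapping groups. Of 24 sarcomere genes 0 were raised and 8 lowered, with a median of -0.42; the lowered count was 5 without R0 replicate 3 and 10 without R0 replicate 2, and 5 with the deposited or the median-centred values, where 3 and 1 sarcomere genes were raised. By ranks 1 sarcomere gene was lowered and 0 raised. mlc-1, a myosin light chain, was at 10.91, 11.33 and 10.74 in R0 and 9.24, 9.01, 8.72 and 7.99 in R24 (change -2.25 ± 0.29). unc-22, the giant kinase twitchin, changed by -1.95 ± 0.28 on 1 of 2 probe sets. The titin gene ttn-1 changed by -2.12 ± 0.25 on its brightest probe set, but of its 6 probe sets 1 was lowered, 1 raised and the others not called.

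Of 22 genes that anchor the contractile apparatus to the membrane 15 were lowered and 0 raised, with a median of -1.08, and 9 were lowered with the deposited values or by ranks. unc-82, a kinase at the attachment sites, was at 9.0, 9.55 and 9.46 in R0 and 7.16, 7.65, 7.06 and 7.74 in R24. dyc-1, which works with dystrophin, was at 8.58, 8.55 and 8.59 and then at 6.86, 6.66, 5.99 and 6.74. For both, every fresh array lay above every cultured one, and 1 of 3 probe sets was lowered. The sarcoglycan sgca-1 changed by -2.09 ± 0.17 on 3 of 4 probe sets and the syntrophin stn-1 by -1.84 ± 0.19 on both. unc-52, the perlecan of the muscle basement membrane, was lowered on all 3 of its probe sets, by 2.33 ± 0.14 for the brightest.

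Muscle receptors and channels fell as well, with 13 of 20 lowered, 0 raised and a median of -1.04. The acetylcholine receptor subunits lev-8 and unc-29 were at 7.48, 6.91 and 7.66 and at 7.37, 6.86 and 7.37 in R0, against 5.30, 5.54, 5.29 and 5.29 and 5.39, 5.59, 5.36 and 5.61 in R24. twk-18, a muscle potassium channel, changed by -1.76 ± 0.22 on 1 of 2 probe sets. Of 14 mesoderm transcription factors 8 were lowered and 0 raised (median -0.92), with 4 lowered in the deposited and 5 in the median-centred values. Among them were unc-120, the serum response factor homologue (-1.51 ± 0.31), and the homeobox genes unc-39 and ceh-33 (-1.61 ± 0.14 and -1.82 ± 0.29). The mean level over the attachment genes was 8.31 to 8.63 in R0 and 7.20 to 7.71 in R24. In sorted muscle the median changes of the attachment, excitation, mesoderm factor and sarcomere lists were -1.35, -1.08, -0.71 and -0.31. M0 and M24 also differed in chip lot and scan day, and whether the falls lie within muscle cells was not tested.

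Neurons make up a large share of the cells of such embryos. Of 20 genes of synaptic vesicle release 10 were lowered and 2 raised (median -0.69), with 6 lowered in the deposited or the median-centred values. aex-3, a regulator of the vesicle GTPase RAB-3, was at 8.47, 9.11 and 8.53 in R0 and at 5.84, 5.50, 5.2 and 5.72 in R24 (-3.14 ± 0.21, both probe sets). The presynaptic calcium channel unc-2 (-2.73 ± 0.37, 1 of 4 probe sets), the active zone protein syd-2 (-2.61 ± 0.43, both) and rab-3 (-2.01 ± 0.33, 1 of 2) also fell, and R24 replicate 3 was the lowest array for all 3. snt-1, synaptotagmin, was at 8.62, 9.81 and 8.68 in R0 and 7.61, 7.10, 6.60 and 7.34 in R24, and ric-4, a SNARE protein, changed by -1.33 ± 0.22, each with 1 of 2 probe sets called. The list was not uniform: unc-64, syntaxin, was at 6.01, 4.51 and 5.03 in R0 and 6.99, 6.77, 6.71 and 7.11 in R24, a rise of 1.71 ± 0.32.

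Among genes for making and moving transmitters 7 of 18 were lowered and 2 raised (median -0.63). unc-17, the vesicular acetylcholine transporter, was at 8.27, 8.50 and 8.49 in R0 and at 6.85, 6.22, 6.24 and 6.21 in R24 (-2.04 ± 0.18, all 3 probe sets). Glutamatergic and tyraminergic genes fell too: the vesicular transporter eat-4 changed by -2.02 ± 0.33 and tdc-1, tyrosine decarboxylase, by -2.55 ± 0.20, on 1 of 2 and 1 of 3 probe sets. The raised genes of this list were a pair of uptake transporters, cho-1 for choline at 5.06, 5.23 and 5.37 and then 6.28, 6.29, 6.29 and 6.30 (1.07 ± 0.11), and mod-5 for serotonin 1.01 ± 0.18 higher. Neuropeptide genes had no common direction: of 88 measured 6 were raised (6.82%) and 12 lowered (13.6%), beside 12.8% and 13.7% of all genes (median 0.03). Leaving out R0 replicate 3 left 2 raised, while leaving out R24 replicate 1 gave 20 lowered. With the deposited values 11 neuropeptide genes were raised and 7 lowered, and with median-centred arrays 10 and 8. The proprotein convertase egl-3, which processes these peptides, was at 10.01, 9.98 and 10.26 in R0 and 11.22, 10.56, 10.24 and 10.72 in R24, with R24 replicate 3 within the fresh range (adjusted p = 0.0554); its other probe set was raised, and so was this one with the deposited and the median-centred values.

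Cilium genes had the lowest median change of the lists with at least 10 measured members. Sensory neurons are the only ciliated cells of this animal, and their cilia are built by motor-driven trains of intraflagellar transport proteins. Of 30 genes 18 were lowered and 0 raised, with a median of -1.14, and for 25 of the 30 all R24 arrays lay below all R0 arrays, against 27.5% of all genes. osm-1, a transport protein, was at 8.02, 8.13 and 7.95 in R0 and 5.73, 5.45, 5.35 and 5.46 in R24 (-2.53 ± 0.12). osm-5, another, was at 8.90, 9.01 and 9.3 and then 7.09, 6.69, 6.62 and 6.70 (-2.3 ± 0.16, 1 of 2 probe sets). The groups were well apart for both. The transition zone genes nphp-4 and nphp-1 changed by -3.38 ± 0.26 (1 of 2 probe sets) and -2.15 ± 0.22, and 4 of 4 measured BBSome genes (bbs) were lowered. In sorted muscle the median change of the list was -0.36, with 8 lowered and 2 raised.

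**Figure D4:**
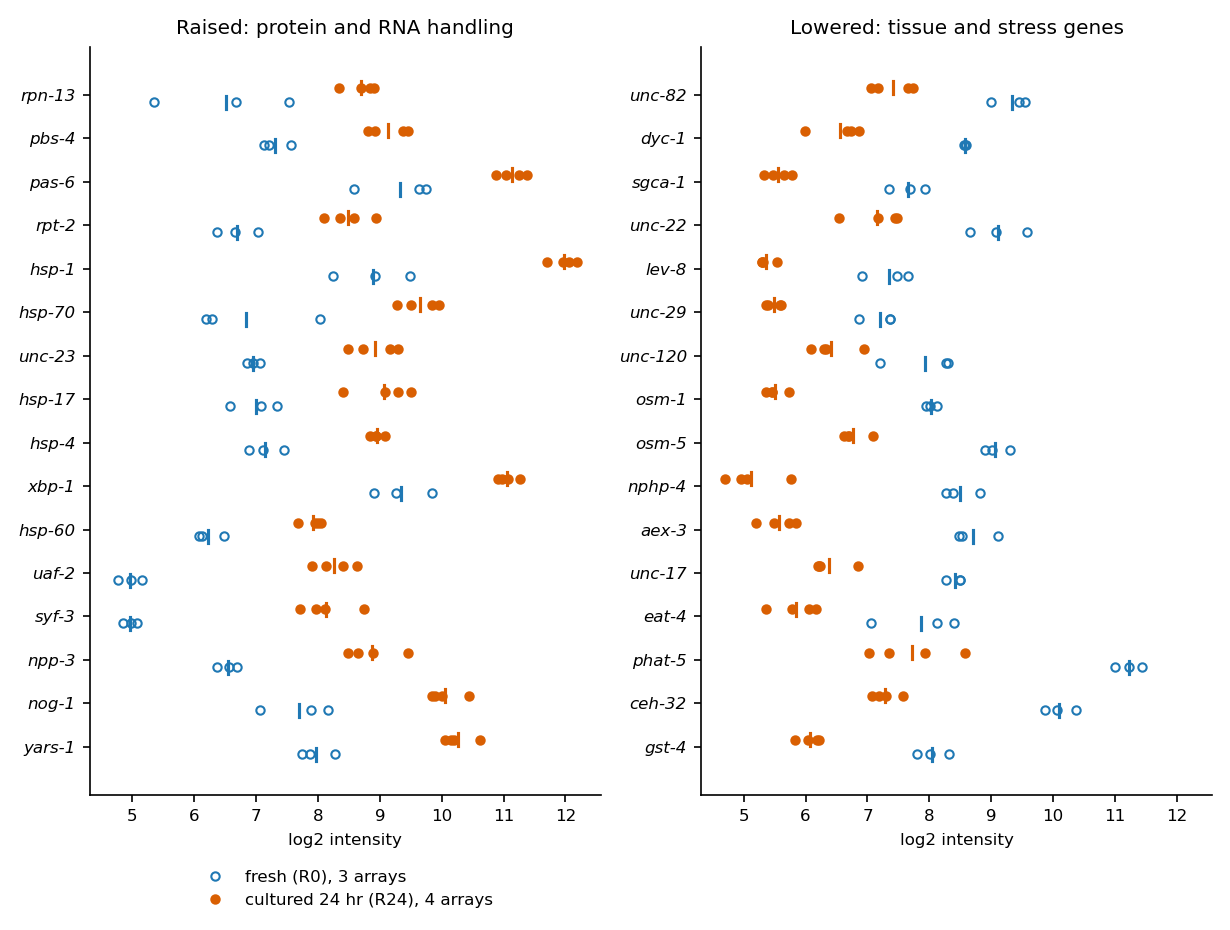
Log2 intensity on each array of genes of protein and RNA handling that were raised (left) and of tissue genes and the stress gene gst-4 that were lowered (right). Open blue circles are the 3 R0 arrays, filled orange circles the 4 R24 arrays and ticks the group means; for osm-1 the fresh arrays lie at 7.95 to 8.13 and the cultured ones at 5.35 to 5.73.

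Of 26 axon guidance genes 7 were lowered (26.9%) and 3 raised (11.5%), beside 13.7% and 12.8% of all genes. Their median was -0.52, and by ranks 4 were lowered and 3 raised. The netrin unc-6 was at 10.25, 10.42 and 10.25 in R0 and 7.94, 7.97, 7.41 and 7.42 in R24, on 1 of 2 probe sets. Its receptor unc-40 changed by -1.80 ± 0.27 on its brightest probe set; 2 of its 3 probe sets were lowered and 1 raised. lad-2, an L1-type adhesion molecule, changed by -3.44 ± 0.18 on 1 of 5 probe sets. In contrast zig-4, a secreted immunoglobulin protein of neurons, was at 7.39, 7.05 and 7.16 and then at 10.65, 10.27, 9.83 and 9.97 (2.98 ± 0.20), and zig-3 rose by 1.65 ± 0.25. Of 22 proneural and neuronal identity factors 8 were lowered (36.4%) and 2 raised (9.09%). ceh-32, a homeobox gene of the head, was at 9.86, 10.38 and 10.07 in R0 and 7.31, 7.58, 7.18 and 7.08 in R24, on both probe sets, and unc-3, which specifies cholinergic motor neurons, changed by -2.44 ± 0.11 on 1 of 2. unc-42 changed by -1.87 ± 0.12, whereas unc-86 and lin-32, which act in touch neuron and sensory lineages, rose by 1.1 ± 0.15 and 1.09 ± 0.14. Among 84 acetylcholine receptor and ligand-gated channel genes, a list added after values were seen, 21 were lowered (25%) and 0 raised (median -0.32). These counts were 16 and 5 with the deposited values and 32 and 5 by ranks.

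Pharyngeal genes fell, with 11 of 20 lowered (55%) and 1 raised (5%), beside 13.7% and 12.8% of all genes (median -0.80). The gland genes phat-5 and phat-2 were at 11.44, 11.23 and 11 and at 9.99, 8.85 and 9.66 in R0, against 7.03, 7.35, 8.58 and 7.93 and 6.40, 6.73, 7.37 and 6.23 in R24. Both were among the brighter transcripts of fresh cells, and every array separated the groups. phat-3 was the member that rose, by 1.48 ± 0.22. tni-4, a pharyngeal troponin I, changed by -2.1 ± 0.34, while the pharyngeal myosin myo-2 was at 7.71, 7.65 and 7.29 and then at 7.55, 7.35, 7.47 and 7.27 and was not called. All 3 coelomocyte markers fell: cup-4 by 2.00 ± 0.14 on both probe sets, lgc-26 by 1.51 ± 0.17 and unc-122 by 1.22 ± 0.21.

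In the epidermis the genes of junctions and fusion had 7 of 25 lowered (28%) and 1 raised (4%), beside 13.7% and 12.8% of all genes. This balance depended on the scaling, since 4 were lowered and 5 raised with the deposited values and 4 each way with median-centred arrays. ajm-1, the apical junction protein, was at 8.75, 9.15 and 9.36 in R0 and 7.54, 7.93, 7.62 and 7.97 in R24, and 4 of its 6 probe sets were lowered. The fusogens, which merge cell membranes, moved apart: eff-1 was at 6.63, 7.12 and 6.83 and then 8.70, 8.74, 8.23 and 8.24 (1.62 ± 0.19, both probe sets), whereas aff-1 changed by -2.06 ± 0.23 on 1 of 2. Of 146 cuticle collagens 9 were raised (6.16%) and 17 lowered (11.6%), shares below the 12.8% and 13.7% of all genes, with a median of -0.06. The lowered count was 10 without R0 replicate 1 and 11 without R24 replicate 2 or replicate 4. With the deposited values 11 collagens were lowered and 9 raised, and by ranks 19 were lowered and 24 raised. Collagen genes are alike in sequence, so that probes may bind several. sqt-3 (-0.51 ± 0.25) and the apical matrix gene noah-1 (-0.44 ± 0.18) were not called. lpr-3, a lipocalin of the embryonic apical matrix, changed by -2.40 ± 0.28 on both probe sets and the cuticlin cut-3 by -3.27 ± 0.62, while dpy-31, an astacin protease that processes collagen, rose by 1.61 ± 0.30 on 2 of 3. Of 80 hedgehog-related genes, many of them epidermal, 23 were lowered (28.8%) and 4 raised (5%). Their median was -0.26, and grl-15 (-2.58 ± 0.26) led the falls.

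Innexins form the gap junctions of invertebrates. Of 25 measured 12 were lowered (48%) and 2 raised (8%), beside 13.7% and 12.8% of all genes. Their median was -0.68, and by ranks 7 were lowered. inx-19, which couples neurons, was at 8.53, 8.37 and 8.31 in R0 and 6.12, 6.27, 5.48 and 5.69 in R24, with both probe sets lowered, and inx-3, broadly expressed in embryos, was at 10.87, 10.67 and 11 and then 8.82, 9.25, 9.42 and 9.02, on 1 of 2. inx-20 changed by -2.44 ± 0.25. The rises of inx-7 (1.33 ± 0.37) and inx-21 (1.17 ± 0.31) were smaller, and that of inx-21, on 1 of 2 probe sets, was not called without R0 replicate 2 (change 0.98) or with scan day as a random block.

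Of 28 intestinal genes 4 were raised (14.3%, near the 12.8% of all genes) and 2 lowered (7.14%, against 13.7%), with a median of 0.27. Without R0 replicate 2 the raised count was 2. elt-2, the master regulator of the intestine, was at 6.31, 6.42 and 6.25 in R0 and 6.12, 6.41, 6.64 and 7.39 in R24 and was not called, with R24 replicate 4 the highest and the other cultured arrays near the fresh ones; the dimmer of its 2 probe sets was lowered. ifb-2, an intestinal intermediate filament, was at 7.06, 5.89 and 6.66 and then 7.6, 6.84, 7.83 and 8.65 (limma, adjusted p = 0.0512). It was raised without R0 replicate 1 and without R24 replicate 2. The same held with the deposited and the median-centred values, with dim probe sets filtered out and with a replicate block. The gut esterase ges-1 was higher on every R24 array, at 5.50, 5.44, 5.36 and 5.47 against 4.72, 4.60 and 4.95, a 1.60-fold difference below the fold minimum (adjusted p = 0.0024) that was passed without R0 replicate 3. The cathepsin B gene cpr-1 rose by 1.06 ± 0.12 and cpr-4 changed by -1.21 ± 0.18. Markers of tissue that sorted embryonic cells should not hold gave 1 of 5 yolk protein genes lowered, and 4 of 23 major sperm protein genes raised and 0 lowered (median 0.53; mean level 5.85 to 6.05 in R0 and 6.08 to 6.82 in R24). Sperm protein genes are near copies of each other and share probes, and the raised count ran from 2 (without R0 replicate 3, R24 replicate 2 or R24 replicate 3) to 6 (without R24 replicate 1), and was 7 with the deposited values, 9 by ranks and 1 with scan day as a random block.

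Maternal and germline transcripts, which early embryos inherit and somatic cells lose, were not lower after culture. Of 28 measured 9 were raised and 4 lowered (median 0.38). glh-1, a helicase of germ granules, was at 4.88, 5.47 and 5.52 in R0 and 7.90, 7.76, 8.40 and 7.88 in R24 (2.69 ± 0.21, both probe sets). meg-1, another germ granule protein, was at 5.46, 6.33 and 5.86 and then 7.81, 8.79, 7.98 and 8.41 (2.36 ± 0.28, 2 of 3 probe sets). The groups were apart for both genes. pie-1, which silences transcription in germ cell precursors, was at 4.87, 4.77 and 4.87 in R0 and 6.0, 6.0, 6.0 and 6.09 in R24, the Notch-type receptor glp-1 rose by 1.33 ± 0.19, and pos-1 by 1.13 ± 0.22 on both probe sets. mex-5, at 5.99, 7.29 and 6.73 and then 7.06, 7.07, 7.18 and 7.07, was not called, though it was with the deposited values. Against these, the kinase mbk-2 of the oocyte-to-embryo transition changed by -1.30 ± 0.16 on 2 of 3 probe sets and nos-2, a germline translation regulator, by -0.92 ± 0.12. The mean level of the list was 6.15 to 6.52 in R0 and 6.68 to 6.81 in R24. In sorted muscle, which is somatic, the median of the list was 0.135, with 7 raised and 3 lowered. There pie-1, glh-1 and pos-1 rose as well, by 1.05 ± 0.11, 1.98 ± 0.23 and 1.89 ± 0.25 in the fit of all 13 arrays, while mex-5 was not called (0.34 ± 0.34).

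Early lineage factors showed 3 of 23 raised and 3 lowered, 13% each way and near the 12.8% and 13.7% of all genes, or 6 and 2 with the deposited or the median-centred values. end-1 and med-1, which specify endoderm and mesendoderm in the early embryo, were not called (0.19 ± 0.17 and -0.37 ± 0.15). pal-1, of the posterior lineages, changed by -1.09 ± 0.17 on its brightest probe set, but of its 3 probe sets 1 was raised, and the call was lost with the deposited and the median-centred values. hlh-2, the E protein partner of bHLH factors, changed by -1.60 ± 0.20, with its other probe set raised. Of the 6 Hox genes measured 3 were raised and 1 lowered. The intensity of egl-5 was 4.42, 4.35 and 4.44 in R0 and 5.17, 5.62, 5.18 and 5.43 in R24. Its fresh values lie at the level of the dimmest 3424 genes (means of 3.32 to 4.62) and are not known to be above background. lin-39 rose by 1.2 ± 0.24 and php-3 by 0.90 ± 0.18. The anterior gene ceh-13 changed by -0.85 ± 0.16, a call lost without R24 replicate 1 and with the deposited and the median-centred values.

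Cell cycle genes had 8 of 38 raised (21.1%) and 2 lowered (5.26%), beside 12.8% and 13.7% of all genes (median 0.13). Without R0 replicate 2 the lowered count was 5. With the deposited values 13 were raised and 1 lowered, and by ranks 7 and 0. klp-7, a microtubule-depolymerising kinesin of mitosis, was at 5.69, 4.69 and 5.13 in R0 and at 8.28, 8.2, 7.82 and 8.56 in R24 (3.05 ± 0.26). Licensing and replication genes rose by less: cdt-1 by 1.38 ± 0.23 and mcm-6 by 1.30 ± 0.19. The mitotic kinase air-1 rose by 1.5 ± 0.23, whereas the cyclin cyb-1 was at 9.83, 9.08 and 10.02 and then 8.03, 8.50, 8.91 and 7.96 (-1.29 ± 0.30, 1 of 3 probe sets lowered). mcm-7 was at 9.3, 7.27 and 8.94 in R0 and 9.03, 10.03, 10.10 and 10.42 in R24, so that the groups overlapped (adjusted p = 0.055), while its other probe set was raised. The brightest probe set of mcm-7 was raised without R0 replicate 1 and without R24 replicate 1. It was also raised with the deposited and the median-centred values, with dim probe sets filtered out and with array weights. The call of cdk-1 (0.99 ± 0.32) was lost when any of 5 arrays was left out, namely R0 replicates 2 and 3 and R24 replicates 2, 3 and 4. Among apoptosis genes ced-4, the activator of the caspase, was at 6.42, 6.74 and 6.81 and then 8.0, 7.95, 8.06 and 8.22, and egl-1, which triggers cell death, rose by 1.19 ± 0.19, while the engulfment genes ced-6 and ced-1 changed by -1.87 ± 0.16 and -1.07 ± 0.21, each on 1 of 2 probe sets, the latter not called with the deposited values.

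Of 61 glutathione and oxidative stress genes 18 were lowered (29.5%) and 5 raised (8.2%), beside 13.7% and 12.8% of all genes. Their median was -0.33, and 2 were raised without R0 replicate 3. In sorted muscle the median of these genes was 0.16, with 11 raised and 6 lowered. The larger detoxification list of 137 cytochrome P450 and UDP-glucuronosyltransferase genes had 15 lowered and 13 raised (median -0.02), shares of 10.9% and 9.49%, both below those of all genes. gst-4, a glutathione S-transferase widely used as a reporter of oxidative stress, was at 8.32, 7.80 and 8.02 in R0 and 6.19, 5.82, 6.04 and 6.22 in R24 (-1.98 ± 0.16, adjusted p = 9.98e-05). gst-21 and gst-10 changed by -2.98 ± 0.20 and -2.25 ± 0.29, and msra-1, a methionine sulphoxide reductase, by -2.39 ± 0.36. In metabolism no list had a median of 0.5 or more in size. fat-6, a stearoyl-CoA desaturase, was at 5.30, 4.86 and 5.33 and then 6.87, 7.39, 7.94 and 7.81 (2.34 ± 0.26), and acdh-3, an acyl-CoA dehydrogenase, rose by 2.27 ± 0.12, while the lipid-binding genes far-3 and lbp-3 changed by -3.32 ± 0.23 and -2.28 ± 0.30. pfk-1.1, the phosphofructokinase of glycolysis, changed by -1.88 ± 0.19 on 1 of 2 probe sets. The autophagy gene atg-7, an E1-like enzyme, rose by 2.02 ± 0.15.

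In the Sma/Mab branch of TGF-beta signalling the Smads sma-4 and sma-3 rose, sma-4 from 6.09, 5.87 and 5.91 to 8.19, 8.25, 8.71 and 8.79 (2.53 ± 0.18) and sma-3 by 1.52 ± 0.21, while daf-3, the Smad of the dauer branch, changed by -1.59 ± 0.21 on 1 of 2 probe sets. Together with insulin signalling this list of 44 genes had 7 raised and 7 lowered, 15.9% each, near the 12.8% and 13.7% of all genes, and 4 each way with scan day as a random block. The insulin pathway kinase akt-1 changed by -1.65 ± 0.23 on 1 of 2 probe sets. Of 254 nuclear hormone receptors, ligand-gated transcription factors that are unusually numerous in nematodes, 40 were lowered and 16 raised (26 each way with the deposited values). These shares were 15.7% lowered, near the 13.7% of all genes, and 6.3% raised, below their 12.8%. The member with the largest rise was nhr-43, from 4.97, 5.04 and 4.83 to 7.94, 7.91, 7.39 and 7.77. Chemoreceptors, most of which are dim in embryos, had 46 of 1223 raised and 99 lowered, shares below those of all genes. The lowered count was 147 without R0 replicate 1. By ranks 109 were raised and 265 lowered, where 2636 and 3024 of all 17118 genes were. The share lowered by ranks thus lay above that of all genes.

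Calls were not even along the genome. On the X chromosome 23.9% of 2353 genes were lowered and 7.01% raised, with a median change of -0.25. On the autosomes 11.6% to 12.4% were lowered and 9.94% to 19.5% raised, and medians lay between -0.06 and 0.09. Chromosome III had the highest share of rises, 440 of 2251 genes. The contrast was also present among bright genes. Among the brightest 3424 genes, 39.3% of 461 X-linked genes were lowered and 9.76% raised, against 12.7% to 21.7% lowered on the autosomes. Several of the genes above are X-linked, among them ace-1, aex-3, unc-2, syd-2, osm-1, osm-5, dyc-1, sgca-1, lev-8 and mlc-1. In sorted muscle 17% of X-linked genes were lowered and 6.67% raised. No test was made of these shares, since neighbouring genes are not independent.

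**Figure D5:**
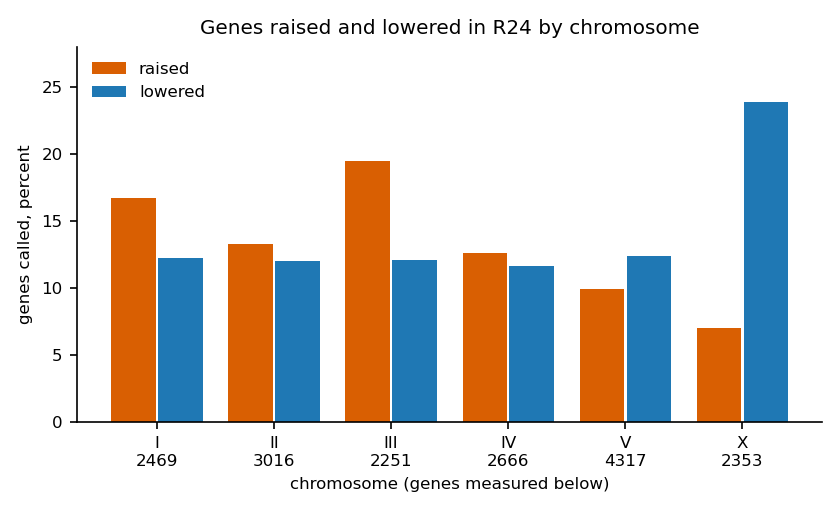
Share of measured genes, in percent, raised (orange) and lowered (blue) in R24 against R0 on each chromosome, with the number of genes under each name. The X chromosome stands out with 23.9% lowered and 7.01% raised, while on the autosomes 11.6% to 12.4% were lowered.

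For 28 genes chosen to stand for tissues, cell cycle, lineage and stress, the change in all cells was compared with that in sorted muscle in 1 fit of all 13 arrays. The difference passed an adjusted p of 0.05 for hsp-4 alone, beside 2.72% of all genes, 1.5% with a higher and 1.23% with a lower change in muscle. In that fit hsp-4 rose by 1.80 ± 0.19 in all cells and changed by 0.36 ± 0.20 in muscle, where its arrays were at 6.79, 7.59 and 7.37 when fresh and 7.71, 7.74 and 7.38 when cultured. The difference of -1.44 ± 0.28 had an adjusted p of 0.0198 (limma), which was 0.0540 without R0 replicate 3 and 0.0515 without M0 replicate 3. It was 0.069 with the deposited values, 0.115 with median-centred arrays and 0.0954 with a replicate block. Differences of tni-4 (1.93 ± 0.48), gst-4 (1.29 ± 0.32) and unc-17 (1.25 ± 0.33), whose falls were smaller in muscle, had adjusted p of 0.0581, 0.0551 and 0.0687. Fresh muscle was lower in tni-4, at 4.99, 4.36 and 5.31 in M0 against 7.95, 7.44 and 8.01 in R0. Whether this level limited a fall was not tested. The levels of ric-4 were 7.81, 6.90 and 7.93 in M0 against 9.98, 10.14 and 10.29 in R0. Without R24 replicate 1 the differences of tni-4, ric-4 and unc-17 passed the threshold (limma, adjusted p of 0.012, 0.0428 and 0.035). That of unc-17 also passed without M0 replicate 2 (0.0457). That of gst-4 passed without M0 replicate 1 (0.0184), with scan day as a random block (0.0484) and with a replicate block (0.0495). myo-3 changed by -1.18 ± 0.39 in muscle and by -0.16 ± 0.36 in all cells, a difference of -1.02 ± 0.53 that did not pass (adjusted p = 0.425).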

How the data were processed

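Total RNA of sorted cells (100 ng per sample) was amplified in 2 rounds, labelled with biotin and hybridised to Affymetrix C. elegans arrays, 1 array per sample. The deposited intensity values, on a linear scale, were made by the authors with RMA (background correction, quantile normalization and probe summary; version not given in the sources used here). Deposited scanner settings were read only for scan day and chip lot. Arrays of the same time shared 135 to 1410 identical values per pair and arrays of different times 0, so the times were normalized separately.

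The log2 intensities of the 7 reference arrays were quantile normalized together and fitted with limma 3.58.1 (R 4.3.3; lmFit, eBayes, two-sided), without covariates. All 22548 probe sets were kept and p-values adjusted by Benjamini-Hochberg over them. A probe set was called at an adjusted p under 0.05 and a fold of at least 1.7. Each of 17118 genes was read by the brightest probe set naming it alone (20766 of the probe sets name 1 gene, 887 several, 895 none; 20701 matched RefSeq). For 1045 called genes with several probe sets, 328 had another called the same way, 664 had no other called and 56 had a probe set called the opposite way. Errors are standard errors of the fit. The muscle comparison used a joint normalization of all 13 arrays. Scanner present calls were not used, so values near the floor are not known to be above background.

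The samples, the 56 gene lists and the rules were chosen with earlier results of these data known, and 9 lists were added after values were seen. The lists came from textbook knowledge and were described by counts and medians only. Named genes were the 15 largest rises and 15 largest falls with non-overlapping arrays, up to 4 called members per list and direction, and 28 tissue and stress genes whatever their values. On simulated arrays with the spread of R24 against R0 over 22548 probe sets, the fit recovered 58% of 100 shifts of 1 and 91% of 100 shifts of 2 on the log2 scale, with 3 false calls. The shifted probe sets were few beside the 26.3% called in the data, and noise was drawn independently for each probe set. These rates therefore do not carry over to the real comparison. Alternatives tried were other scalings, ranks, a dimness filter, other fold minima, leaving out each array, blocks, array weights and the mean of a gene's probe sets. Plots were made in Python 3.11.15 (matplotlib 3.10.9). No sequences are shown.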

Additional observations from a re-analysis of the deposited data

Results flagged for a closer look

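In 22 of the 199 genes tested, 1 of the 4 R24 arrays stood apart from the other 3 by more than Dixon's limit for 4 samples, where chance gives about 1 in 20. All values are log2 intensities. R24 replicate 1 was the array apart for F26E4.5 (8.48), R02F11.1 (7.63), T03F1.11 (6.12), lad-2 (6.90), rnf-113 (8.82), unc-17 (6.85) and vha-18 (9.18). R24 replicate 2 was apart for hlh-2 (7.39), lev-8 (5.54), pal-1 (8.40) and unc-3 (6.21). R24 replicate 3 was apart for ceh-5 (4.83), lin-32 (5.67), mex-5 (7.18), pfk-1.1 (7.21), syd-2 (4.99), unc-2 (5.55) and unc-40 (7.11), and R24 replicate 4 for D2096.6 (5.07), hsp-12.1 (6.84), npp-6 (8.42) and pie-1 (6.09). For lev-8, ceh-5, mex-5 and pie-1 the other 3 arrays lay so close together that a small step was enough. Groups of 3 arrays were not tested.

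hsp-4, the chaperone of the endoplasmic reticulum, is listed because its change differed between sorted muscle and all cells, by -1.44 on the log2 scale (limma, adjusted p = 0.0198).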

How the results depend on the processing

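Of the 4537 called genes, 3670 to 4319 kept their call, in the same direction, under each other scaling, ranks, blocks, array weights or 1 array left out, and 0 were called the opposite way under any of these settings. This does not cover the mean of a gene's probe sets, with which 2219 genes were raised and 2043 lowered. Without a fold minimum 5044 probe sets were raised and 5297 lowered (3703 and 4250 genes), and at a fold of at least 4 these were 384 and 368 (276 and 289 genes), with 123 of the 383 named calls left. Leaving out 1 array gave 2754 to 3150 raised and 2649 to 3071 lowered probe sets. Within-array ranks cost 86 of the named calls, the deposited values 35 and leaving out 1 array 14 to 35; the causes were not tested. Of 17 lists with a median of at least 0.5 in size 0 changed sign, and of the other 48 lists 26 did under some setting. Between muscle and all cells the count of tissue and stress genes that differed, 1 in the joint fit, was 0 with the deposited or the median-centred values, 2 with scan day as a random block, and 0 (without R0 replicate 3 or M0 replicate 3) to 4 (without R24 replicate 1) with 1 array left out.

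With a replicate block 2805 probe sets were raised and 2721 lowered. The numbers only name the arrays, since same-numbered R0 and R24 arrays deviated from their group means with correlations of -0.003, 0.131 and -0.027. A scan day taken as a random block (correlation 0.412) cannot remove a difference between the groups, because no recorded day held both. The number of arrays, 3 and 4, limits the precision of every value.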

Other observations

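Of 43 genes of oxidative phosphorylation 5 were raised and 7 lowered, 11.6% and 16.3% beside 12.8% and 13.7% of all genes. With the deposited values 9 were raised and 3 lowered, without R0 replicate 3 these were 5 and 3, and without R24 replicate 2 they were 4 and 4. The ATP synthase subunits atp-2 and atp-1 rose by 1.505 ± 0.36 and 1.40 ± 0.31 on the log2 scale, while cox-6B, a cytochrome oxidase subunit, was at 11.23, 10.35 and 11.23 in R0 and 9.49, 9.02, 9.67 and 8.40 in R24. R0 replicate 2 was the lowest fresh array for all 3 of these genes. In the citric acid cycle fum-1, fumarase, rose by 1.27 ± 0.25 and idha-1, an isocitrate dehydrogenase subunit, changed by -1.68 ± 0.15 on 1 of 2 probe sets. Of 19 genes of the vacuolar proton pump 2 were raised and 2 lowered, 10.5% each way, with a median of -0.29. With the deposited values these counts were 4 and 1. The largest rise was that of vha-18, at 5.58, 6.74 and 5.41 in R0 and 9.18, 8.35, 8.37 and 8.39 in R24. The lowered genes were vha-17 and vha-8, the latter not called with the deposited values.

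Of 60 homeobox genes named ceh, a list added after values were seen, 20 were lowered (33.3%) and 6 raised (10%), beside 13.7% and 12.8% of all genes. ceh-5 was at 8.55, 8.03 and 8.23 in R0 and 4.90, 4.90, 4.83 and 4.91 in R24, and ceh-37 changed by -2.25 ± 0.15 on 1 of 2 probe sets. Of 23 chromatin and dosage compensation genes 7 were lowered (30.4%) and 2 raised (8.7%). However, 4 were lowered and 7 raised with the deposited values, 4 and 5 with median-centred arrays and 3 and 1 by ranks. sdc-2, which brings the dosage compensation complex to the X chromosomes, was at 8.24, 9.16 and 8.84 in R0 and 7.09, 7.06, 6.53 and 7.28 in R24, with 1 of 2 probe sets lowered, and hpl-1, a heterochromatin protein, changed by -1.58 ± 0.18, also on 1 of 2. Of 20 genes of transposon silencing and RNA interference 4 were raised (20%) and 1 lowered (5%). mut-7, an exonuclease-like protein of this pathway, was at 5.04, 4.66 and 4.86 and then at 7.15, 8.01, 7.72 and 8.16, on 1 of 2 probe sets, and the RNA-dependent RNA polymerase rrf-1 changed by -1.39 ± 0.13 on 1 of 2.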
